A study of Homo sapiens with 12 samples.

Results

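The ATP-binding cassette (ABC) transporter family was followed in RNA sequencing of RT4, an established line of human bladder cancer cells. Members were chosen by symbol, as ABC, a single letter from A to G and digits, with pseudogenes left out. The rule gave 45 of the 61757 genes listed with a symbol in both count tables: 12 of subfamily ABCA, 9 of ABCB, 11 of ABCC, 4 of ABCD, 1 of ABCE, 3 of ABCF and 5 of ABCG. In the overexpression experiment, 3 libraries came from cells with a plasmid that encodes Flag-tagged ITGB4, an integrin beta subunit, and 3 from controls with the empty vector. In the resistance experiment, 3 libraries of parental RT4 cells treated with PBS were set against 3 libraries of a cisplatin-resistant RT4 line treated with cisplatin, a platinum compound that forms DNA crosslinks. Resistance and the presence of the drug cannot be told apart in that comparison, and the labels state no dose, time or number of clones. The overexpression cells were grown in McCoy's 5A medium and the cells of the resistance experiment in MEM, so each treated group was compared with its own controls only.

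ABC proteins bind and hydrolyse ATP through paired nucleotide-binding domains, and most of them use that energy to move a substrate across a membrane. Members of ABCA and ABCG mainly export lipids, ABCB holds the multidrug exporter ABCB1 and carriers of mitochondria and other organelles, and ABCC holds the multidrug resistance proteins, which export glutathione conjugates, organic anions and nucleotides. Most ABCD members carry fatty acids into peroxisomes, while ABCE1 and the ABCF proteins have no membrane domain and act on ribosomes and translation. In cancer cells, ABCB1, ABCC1 and ABCG2 are known for pumping out drugs, and ABCC2 for exporting platinum bound to glutathione.

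Libraries of the overexpression experiment held 22701466 to 33352045 counts and those of the resistance experiment 31824582 to 38199946. ITGB4 was higher in all plasmid libraries, at 1379 to 1485 CPM (counts scaled to library size) against 858 to 879 CPM, and also in the resistant libraries, at 831 to 848 against 598 to 602 CPM. A label field of some vector and plasmid libraries names ITGB5 or ITGB6, while every title names ITGB4. The control columns of the resistance table are headed NC with a number, letters found in the titles of the vector libraries and not in those of the parental ones. They were taken as parental by inference, since the resistant columns stand beside them and the vector libraries have columns of their own in the other table. All results on resistant against parental cells rest on that assignment. The columns are called libraries a, b and c in the order of their numbers, since no label ties a number to a parental sample. Urothelial and epithelial transcripts were present, with group means of 1238 to 1825 CPM for KRT7, 156 to 256 CPM for GATA3 and 211 to 248 CPM for EPCAM, while KRT20 was listed at 0 throughout. Immune markers summed to at most 0.617 CPM in any library. Fibroblast markers summed to 48.1 to 52.3 CPM in vector and 24.4 to 26.0 CPM in plasmid libraries, nearly all of it COL3A1 and COL1A1, and the group means of PDGFRB, DCN, LUM and COL1A2 did not exceed 0.116 CPM.

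Values below are CPM after TMM normalisation, as mean ± SD with n = 3 libraries per group. A gene is called higher or lower where edgeR's quasi-likelihood test, adjusted over all genes tested by Benjamini-Hochberg, gives a p under 0.05. After a log2 fold change, ± gives an approximate standard error, computed as the absolute change over the root of the F statistic. The labels do not say whether replicates are separate cultures, and p-values then reflect only how these libraries vary, which may be technical. RNA of a whole culture cannot tell fewer cells of a kind from less RNA per cell.

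Levels between members were compared per kilobase of exon, as RPKM, with the exon length over all transcripts of a gene. With the basic transcript set the length is 6417 in place of 9614 bases for ABCC3, 10527 in place of 11441 for ABCC5 and 3738 in place of 7589 for ABCD3. Ranks and shares below were not recomputed with that set, and the order of members depends on the length chosen. At the length used, ABCC3 and ABCC5, exporters of organic anions and of cyclic nucleotides, were the most abundant members in all 12 libraries. Together they made up 34.2% to 42.0% of the summed RPKM of the family. ABCC5 led in the vector libraries, at 49.4 ± 0.682 RPKM against 43.2 ± 0.199 RPKM for ABCC3, with no overlap. With the basic lengths above, the order of ABCC5 and ABCC3 in these libraries would reverse. In the other groups ABCC3 led, at 38.9 to 40.5 RPKM in plasmid, 34.6 to 35.9 in parental and 57.8 to 60.2 in resistant libraries. ABCD3, a peroxisomal fatty acid carrier, ABCE1, a ribosome recycling factor, and ABCF3 followed in most groups, with ABCD3 at 14.1 ± 0.426 to 20.7 ± 0.573 and ABCE1 at 12.7 ± 0.416 to 17.0 ± 0.369 RPKM. With the basic lengths, ABCD3 would stand above ABCC5 in the mean of the resistant libraries. ABCC4 held the fourth place in vector cells at 16.04 ± 0.218 RPKM, while ABCG2 held ranks 19 to 23 at 1.07 ± 0.0866 to 2.29 ± 0.204 RPKM and ABCB1 did not exceed 0.878 RPKM in any library. At 1 RPKM or more stood 25 members in vector, 22 in plasmid, 21 in parental and 22 in resistant cells. The family sum was 230 to 232 RPKM in vector and 198 to 199 RPKM in plasmid libraries, and 182 to 184 RPKM in parental and 204 to 209.6 RPKM in resistant libraries; levels set across the experiments come from tables normalised separately.

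**Figure D1:**
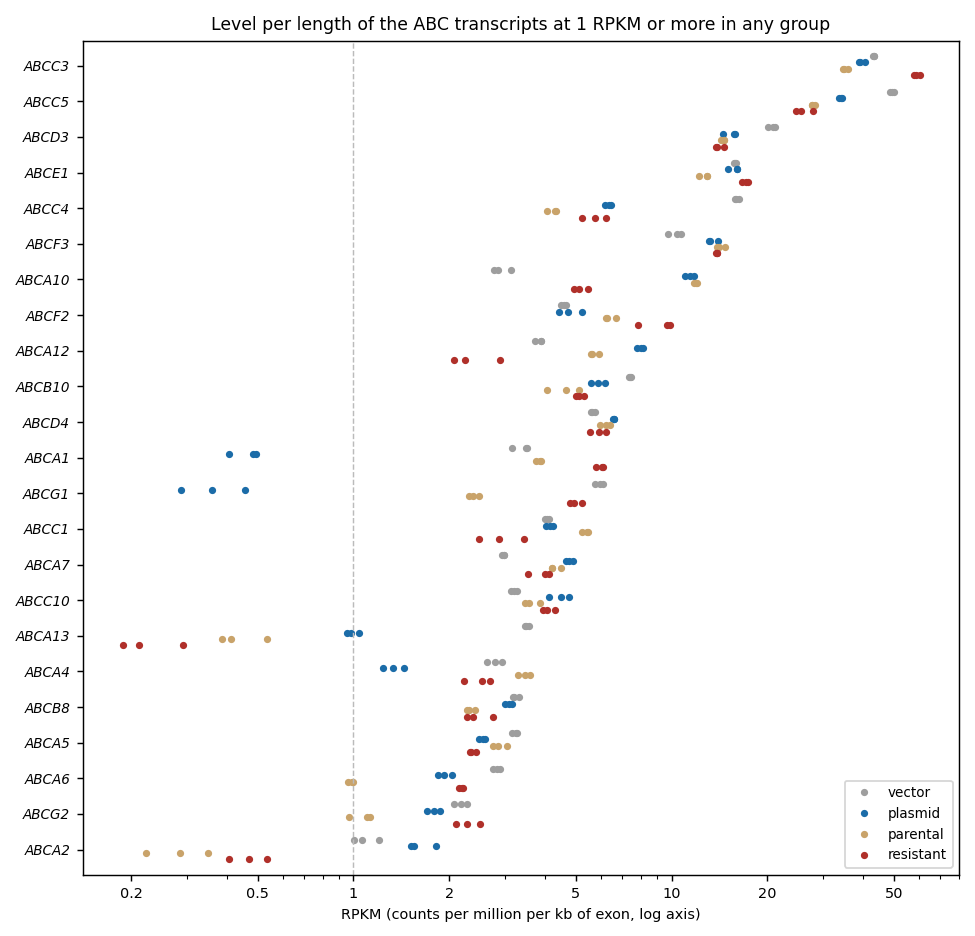
RPKM (horizontal log axis) of 23 ABC members that reached a mean of 1 RPKM in any group, with 1 point per library and colours for the 4 groups; the dashed line marks 1 RPKM. With exon lengths over all transcripts, ABCC3 and ABCC5 lie at the top in every group, and ABCA1 and ABCG1 fall below the line in the plasmid libraries only.

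The comparison of plasmid with vector cells addresses which transporter transcripts differ when ITGB4 is raised. ABCG1, ABCA1, ABCB1 and ABCA13 were lower by the largest factors among the called members, and ABCA10, ABCA12, ABCC2 and ABCB6 were higher by the largest. Of the 45 members, 35 passed the filter on low counts, and 11 of them were called higher, 16 lower and 8 neither. Over all 16950 genes tested, 72.2% were called, 36.5% higher and 35.7% lower, so the number of called members lies near the background. The median log2 fold change was -0.13 over the 35 members and 0.0017 over all genes. Changes of at least 2-fold were called in 11 of the 35 members, a larger share than the 16.2% of all genes. In a test for a change over 1.5-fold 4 members were higher and 7 lower, against 22.5% of all genes called. The shares of members and of all genes were not compared by a test. All 11 tested ABCA members were called, 5 higher and 6 lower, and both tested ABCG members, ABCG1 and ABCG2, were lower.

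In resistant against parental cells, ABCC8, ABCA6, ABCG2 and ABCG1 were higher by the largest factors among the called members and ABCA12, ABCA10, ABCC2 and ABCA13 lower by the largest. Here 33 members were tested, with 12 called higher, 8 lower and 13 neither. Over all 16875 genes tested, 54.5% were called, 26.8% higher and 27.7% lower. The median log2 fold change was 0.16 over the members and 0.018 over all genes. A change of at least 2-fold was called in 7 of the 33 members, a larger share than the 11.5% of all genes. In the test for a change over 1.5-fold 5 of the 33 members were higher and 4 lower, together a larger share than the 12.5% of all genes called. These shares were not compared by a test either. With library sizes alone in place of TMM, the median of all genes moved to 0.18, the share of higher genes among called ones went from 49.1% to 67.8%, and the members split into 17 higher and 6 lower. ABCA5 was then among those no longer called, and ABCB8, ABCB10, ABCD3 and ABCF3 were among those gained. The changes below are given on the TMM scale.

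**Figure D2:**
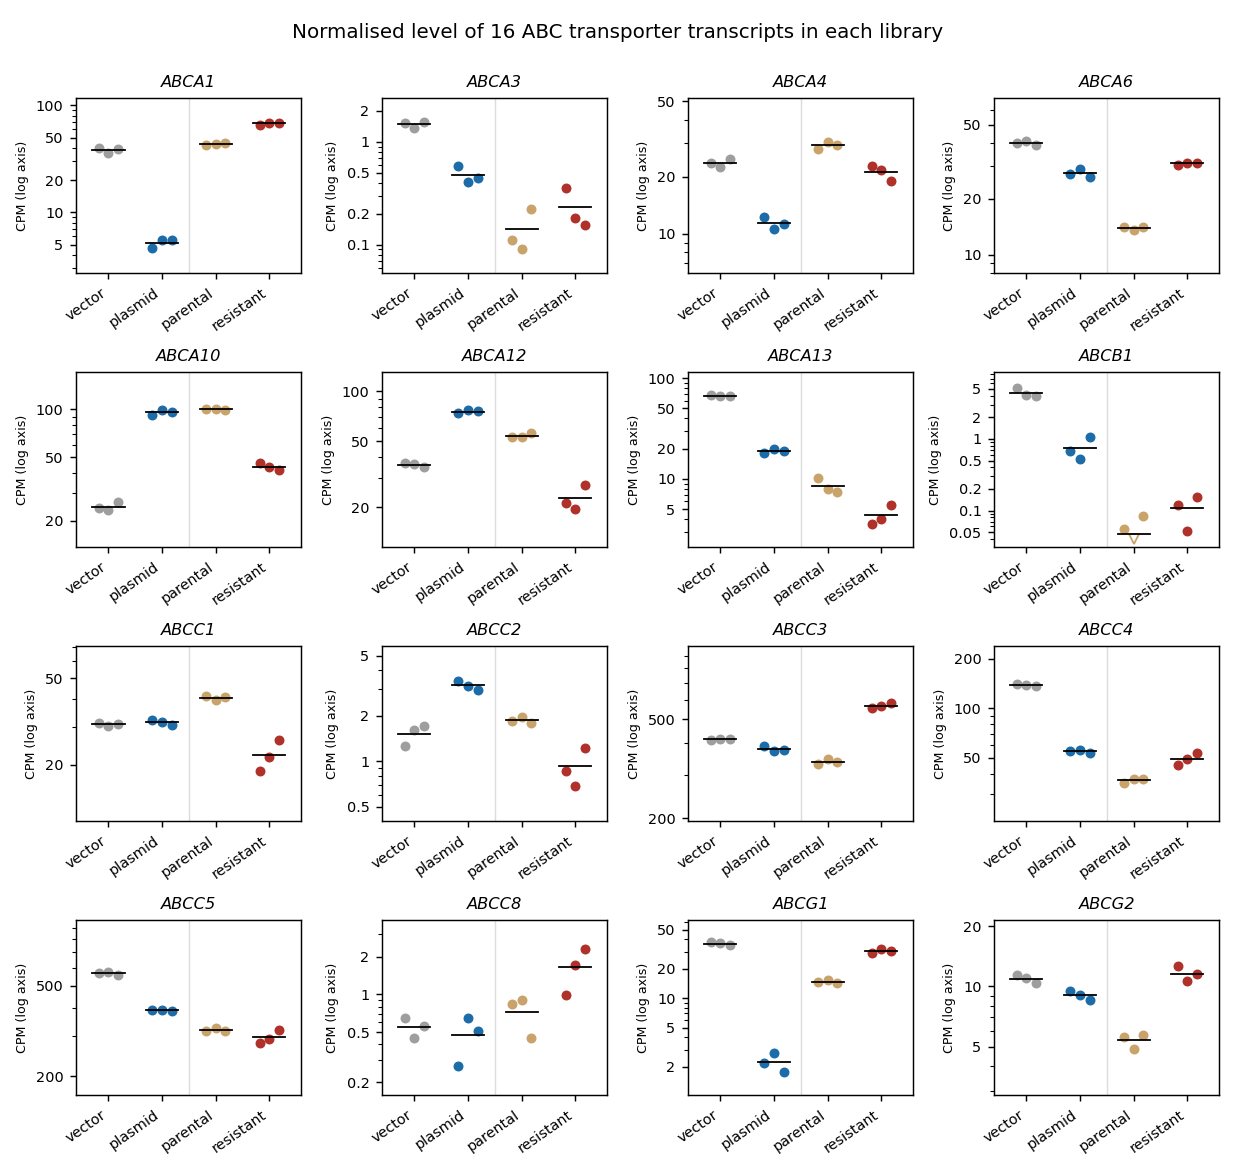
CPM of the 16 members described singly, 1 point per library on a log axis that differs between panels, with black lines at group means; an open triangle at the lower edge marks a library with 0 counts. In ABCA1 and ABCG1 the plasmid libraries lie far below the vector ones, at 4.62 to 5.59 and 1.76 to 2.78 CPM, while the resistant libraries lie above the parental ones.

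ABCA1 and ABCG1 export cholesterol and phospholipid to lipoproteins and are textbook targets of the liver X receptors (LXR), which sense oxysterols. ABCA1 (ENSG00000165029) spans chr9:104781002-104928237 on the minus strand and ABCG1 (ENSG00000160179) chr21:42199689-42297244 on the plus strand of GRCh38, both as protein-coding genes in GENCODE 29. The ABCA1 promoter, chr9:104928106-104928405, minus strand, RefSeq on GRCh38.p14, is shown because it was the single one of 53 member start sites to hold the LXR direct repeat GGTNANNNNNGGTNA on either strand, as 0.627% of 34796 promoters of the same length do. The window runs from 250 bases before to 50 bases after the annotated start. Capitals mark that repeat, here on the reverse strand with its first base at -69, and an E-box, CACGTG, at -147.
ABCA1: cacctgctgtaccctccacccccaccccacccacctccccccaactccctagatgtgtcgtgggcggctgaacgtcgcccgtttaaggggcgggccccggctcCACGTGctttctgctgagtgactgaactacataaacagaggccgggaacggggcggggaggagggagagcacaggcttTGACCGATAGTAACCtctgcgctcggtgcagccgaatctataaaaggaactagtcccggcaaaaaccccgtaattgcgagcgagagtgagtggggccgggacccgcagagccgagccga
A match of letters describes the sequence and does not show that a factor binds there.

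ABCA1 stood at 39.9, 35.7 and 39.5 CPM in the vector libraries and at 4.62, 5.48 and 5.59 CPM in the plasmid libraries. The groups were thus far apart, with means of 38.4 ± 2.31 and 5.23 ± 0.529 CPM, a 7.27-fold decrease (log2 -2.86 ± 0.073, adjusted p = 1.64e-15). In the resistance experiment ABCA1 stood at 42.5, 43.9 and 44.1 CPM in parental and at 65.5, 69.0 and 68.6 CPM in resistant libraries. There every resistant library was above every parental one, by 1.56-fold on average (log2 0.64 ± 0.053, adjusted p = 1.89e-08). ABCG1 moved in the same directions. It read 37.2, 36.4 and 35.1 CPM in vector and 2.20, 2.78 and 1.76 CPM in plasmid libraries, a 16.4-fold decrease and the largest of the tested members (log2 -4.03 ± 0.091, adjusted p = 3.41e-16). Parental libraries held 14.5, 15.2 and 14.2 CPM and resistant ones 29.3, 32.0 and 30.1 CPM, a 2.08-fold increase (log2 1.06 ± 0.076, adjusted p = 2.78e-09). Per exon length over all transcripts, ABCA1 dropped from rank 15 to rank 25 of the family with the plasmid and rose from rank 15 to rank 7 in resistant cells. These ranks were not recomputed with another length.

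Genes of cholesterol handling, a list of 11 that includes further LXR targets, did not move as 1 block. Of all genes tested, 36.5% were higher and 35.7% lower with the plasmid, and 26.8% and 27.7% in resistant cells. The same shares stand beside every other list of genes below, and no list was tested as a set. With the plasmid, 3 of 10 tested were higher and 5 lower, and the median log2 fold change was -0.06. MYLIP, an LXR-induced ubiquitin ligase, fell from 73.7 ± 1.06 to 37.7 ± 0.802 CPM (log2 -0.97 ± 0.035), LPCAT3, a phospholipid-remodelling enzyme, from 99.2 ± 0.436 to 66.9 ± 1.49 CPM, and NPC2, which moves cholesterol out of lysosomes, from 189.5 ± 4.54 to 126.8 ± 2.40 CPM. In resistant cells 2 of 10 were higher and 6 lower, with a median of -0.44. STARD4, a sterol carrier, fell from 148.7 ± 0.365 to 71.6 ± 1.52 CPM, and SOAT1, which esterifies cholesterol, from 96.3 ± 2.45 to 51.5 ± 1.42 CPM. LPCAT3 was lower here too, at 90.5 ± 6.79 against 165.2 ± 7.14 CPM (log2 -0.87 ± 0.055), while ABCA1 and ABCG1 were higher. MYLIP was not called in resistant cells (log2 -0.06 ± 0.048, adjusted p = 0.28). The 2 higher genes, named after their values were seen, were SCARB1 and APOE. SCARB1, the HDL receptor, was higher in both experiments, at 88.0 ± 0.680 against 73.1 ± 1.25 CPM with the plasmid and at 78.2 ± 6.12 against 54.9 ± 2.02 CPM in resistant cells. APOE, an LXR target that binds lipoprotein lipids, moved as ABCA1 and ABCG1 did but was scarce, at 0.554 ± 0.0784 against 1.41 ± 0.249 CPM with the plasmid (log2 -1.30 ± 0.23) and at 1.94 ± 0.158 against 0.671 ± 0.198 CPM in resistant cells (log2 1.53 ± 0.29).

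Of 18 nuclear receptors and other factors known to act on ABC genes, 6 of 15 tested were higher and 5 lower with the plasmid, with a median log2 fold change of 0.078. In resistant cells 3 of 16 were higher and 8 lower, with a median of -0.073. The shares over all genes were 36.5% higher and 35.7% lower with the plasmid, and 26.8% and 27.7% in resistant cells. PPARD, a fatty acid receptor, and HIF1A, the hypoxia factor, were higher with the plasmid (log2 0.75 ± 0.033 and 0.32 ± 0.027), and SREBF1, which drives lipid synthesis, was lower (log2 -0.60 ± 0.037). In resistant cells ARNT, the partner of HIF1A and of the aryl hydrocarbon receptor, and HIF1A were lower (log2 -0.77 ± 0.075 and -0.30 ± 0.035). NR1H3, which encodes LXR alpha, was higher in both experiments, at 58.8 ± 3.63 against 42.6 ± 2.05 CPM and at 75.7 ± 4.32 against 58.0 ± 2.45 CPM; it was singled out after its values were seen.

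**Figure D3:**
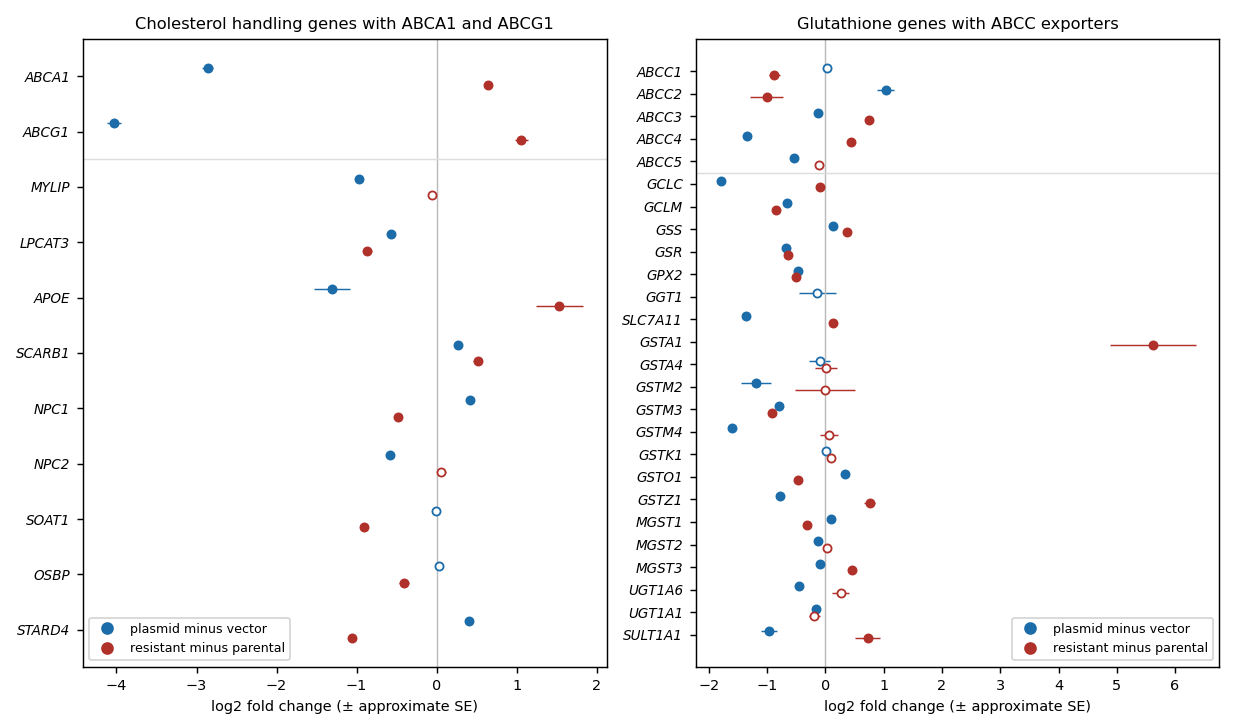
log2 fold changes (horizontal axis, ± approximate SE) of ABCA1 and ABCG1 with the cholesterol handling list (left) and of the ABCC exporters with the glutathione list (right), in blue for plasmid minus vector and red for resistant minus parental; filled points were called. ABCA1 and ABCG1 lie at -2.86 and -4.03 with the plasmid, further from 0 than any listed cholesterol gene, and GCLC lies at -1.80.

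Other members with lipid roles changed as well. ABCA3, the phospholipid carrier of lamellar bodies in lung, was scarce and lower with the plasmid, at 0.583, 0.403 and 0.447 CPM against 1.52, 1.36 and 1.57 CPM in vector libraries (log2 -1.64 ± 0.22, adjusted p = 3.39e-06), and it was too low to be tested in the resistance experiment. ABCA4, known as a retinoid flippase of photoreceptors, was lower in both experiments. It went from 23.7, 22.5 and 25.0 to 12.3, 10.6 and 11.3 CPM with the plasmid (log2 -1.06 ± 0.066, adjusted p = 2.28e-10). Parental libraries had 28.0, 30.7 and 29.5 CPM and resistant ones 22.9, 21.7 and 19.0 CPM (log2 -0.47 ± 0.081, adjusted p = 8.65e-05). ABCA13, the longest member of the family, with a little known role in lipid transport, fell further. Its vector libraries held 67.8, 66.4 and 66.0 CPM and its plasmid libraries 18.2, 19.8 and 18.7 CPM, a 3.53-fold decrease (log2 -1.82 ± 0.042, adjusted p = 3.94e-16). In the resistance experiment it was low already in parental cells, at 10.2, 7.86 and 7.38 CPM, and lower in resistant ones, at 3.59, 4.05 and 5.54 CPM (log2 -0.94 ± 0.17, adjusted p = 1.33e-04). ABCA7, a phospholipid exporter close to ABCA1 in sequence, was higher with the plasmid, at 39.9 ± 0.985 against 24.8 ± 0.170 CPM, and was not called in resistant cells (log2 -0.15 ± 0.071, adjusted p = 0.0902). There ABCA7 was called lower without resistant replicate 1 (log2 -0.18, adjusted p = 0.0361) and in 1 fit of all 12 libraries (log2 -0.13, adjusted p = 0.0489). ABCA2, a carrier of endolysosomes, was higher in both, at log2 0.57 ± 0.079 and 0.72 ± 0.18.

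ABCA12 loads lipids into the lamellar granules of skin. It rose from 36.6, 36.6 and 35.1 to 73.5, 76.8 and 75.4 CPM with the plasmid (log2 1.06 ± 0.036, adjusted p = 6.87e-14) and fell from 52.8, 52.7 and 55.7 to 21.1, 19.5 and 27.1 CPM in resistant cells (log2 -1.25 ± 0.093, adjusted p = 3.89e-09). The groups did not overlap in either experiment, and the direction was opposite. Of 8 genes of skin barrier lipids, 3 of 7 tested were higher and 4 lower with the plasmid, and 1 of 7 was higher and 3 were lower in resistant cells. UGCG, which makes glucosylceramide, was lower in both, at 138.5 ± 9.19 against 190.2 ± 2.41 CPM with the plasmid and at 92.1 ± 3.03 against 132.4 ± 1.65 CPM in resistant cells.

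ABCA5, ABCA6, ABCA8, ABCA9 and ABCA10 lie side by side on the minus strand of chromosome 17, between 68867292 and 69327244. ABCA6 spans 69078702 to 69141888 and ABCA10 69147214 to 69244846, so they are next to each other, and their roles are not well known beyond a link to lipids. They moved in opposite directions in each experiment. ABCA10 went from 23.8, 23.2 and 26.2 CPM in vector to 92.4, 98.9 and 96.2 CPM in plasmid libraries, a 3.91-fold increase and the largest of the tested members (log2 1.97 ± 0.045, adjusted p = 3.46e-16), and from 100.9, 100.5 and 98.8 CPM in parental to 46.1, 43.1 and 41.4 CPM in resistant libraries (log2 -1.20 ± 0.053, adjusted p = 3.84e-12). ABCA6 went from 39.9, 40.8 and 38.8 to 27.2, 28.9 and 26.1 CPM with the plasmid (log2 -0.54 ± 0.045, adjusted p = 1.20e-08), and from 14.1, 13.6 and 14.0 to 30.4, 31.1 and 31.2 CPM in resistant cells (log2 1.15 ± 0.074, adjusted p = 5.88e-10). No library of a treated group overlapped its controls in these 4 comparisons. ABCA9 was higher in both, at log2 0.48 ± 0.13 and 0.98 ± 0.14, ABCA5 was lower in both, at -0.34 ± 0.039 and -0.28 ± 0.065, and ABCA8 had at most 9 counts summed over any group. ABCA5 and ABCA10 share 318 exon bases, 3.78% of the exon length of ABCA10, so counts between these 2 genes are slightly uncertain.

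Among the exporters linked to drugs, ABCC3, ABCC4, ABCC5 and ABCG2 were lower with the plasmid and ABCC3, ABCC4 and ABCG2 were higher in resistant cells, while ABCC1 was lower in resistant cells. Promoters of ABCC4, ABCC5 and ABCG2 are shown because the first holds the letters of an NRF2 site, TGACNNNGC, which the glutathione genes below are known to use, and the others hold those of a STAT site, TTCNNNGAA, the factor family named in the title of the study. Both motifs were searched on both strands. The NRF2 letters were found at 12 of 53 member starts and in 13.3% of all promoters, and the STAT letters at 2 of 53 starts and in 7.67% of all promoters. Capitals mark them. The windows, all on the minus strand of GRCh38.p14 in RefSeq, are chr13:95301402-95301701 for ABCC4, chr3:184017835-184018134 for ABCC5 and chr4:88159241-88159540 for ABCG2, the last being 1 of 5 starts listed for that gene and not known to be the one used here.
ABCC4: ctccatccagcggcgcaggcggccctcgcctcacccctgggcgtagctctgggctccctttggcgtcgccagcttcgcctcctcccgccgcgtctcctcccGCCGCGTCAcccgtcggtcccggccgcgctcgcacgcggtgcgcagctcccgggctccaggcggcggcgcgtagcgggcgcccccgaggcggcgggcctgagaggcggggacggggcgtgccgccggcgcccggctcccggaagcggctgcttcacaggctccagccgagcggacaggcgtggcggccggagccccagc
ABCC5: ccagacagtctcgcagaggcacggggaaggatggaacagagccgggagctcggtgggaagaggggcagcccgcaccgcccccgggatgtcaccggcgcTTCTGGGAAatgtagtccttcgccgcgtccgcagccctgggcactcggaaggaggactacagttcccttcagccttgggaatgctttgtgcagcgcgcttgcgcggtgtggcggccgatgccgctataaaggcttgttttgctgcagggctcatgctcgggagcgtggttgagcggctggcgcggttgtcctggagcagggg
ABCG2: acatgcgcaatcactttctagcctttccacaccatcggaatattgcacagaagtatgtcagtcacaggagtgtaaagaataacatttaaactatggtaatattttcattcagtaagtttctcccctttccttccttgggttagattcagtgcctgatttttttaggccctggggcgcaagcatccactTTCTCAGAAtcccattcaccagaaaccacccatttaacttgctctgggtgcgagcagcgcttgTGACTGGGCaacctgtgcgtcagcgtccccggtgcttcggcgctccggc
The NRF2 letters begin at -149 in ABCC4 and at 2 in ABCG2, and the STAT letters at -152 in ABCC5 and at -62 in ABCG2.

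ABCC1, or MRP1, exports glutathione conjugates and many cytotoxic drugs. It read 31.1, 30.2 and 30.7 CPM in vector and 32.1, 31.4 and 30.5 CPM in plasmid libraries, which overlapped (log2 0.03 ± 0.042, adjusted p = 0.558). In resistant libraries it was lower, at 18.7, 21.7 and 26.1 CPM against 41.5, 39.7 and 41.1 CPM in parental ones, a 1.84-fold decrease (log2 -0.88 ± 0.092, adjusted p = 3.37e-07). The spread among the resistant libraries was wide, yet the highest of them was below every parental library. ABCC2, or MRP2, the canalicular exporter linked to platinum, was scarce. It went from 1.26, 1.60 and 1.72 to 3.41, 3.14 and 2.97 CPM with the plasmid (log2 1.04 ± 0.15, adjusted p = 7.31e-06), from 137 to 247 counts over the 3 libraries of each group. In resistant cells it went the other way, from 1.84, 1.96 and 1.80 to 0.867, 0.683 and 1.22 CPM (log2 -1.01 ± 0.28, adjusted p = 0.00541), from 195 to 102 counts.

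ABCC3, or MRP3, exports glucuronides and bile acids at the basolateral membrane. It changed little with the plasmid, from 413.6, 417.4 and 415.6 to 389, 373.7 and 376.6 CPM, a 1.09-fold decrease that was nonetheless larger than the spread between libraries (log2 -0.13 ± 0.025, adjusted p = 1.57e-04). In resistant cells it rose from 332.3, 344.9 and 336.3 to 556, 566.3 and 579 CPM, by 1.68-fold (log2 0.75 ± 0.037, adjusted p = 1.55e-11). ABCC4, or MRP4, exports cyclic nucleotides, prostaglandins and nucleoside drugs. With the plasmid it fell from 140.6, 138 and 136.9 to 54.8, 55.9 and 53.4 CPM, by 2.53-fold (log2 -1.34 ± 0.031, adjusted p = 5.43e-16). Its parental libraries held 35.2, 37.4 and 37.2 CPM and its resistant libraries 45.1, 49.5 and 53.9 CPM, a 1.35-fold increase (log2 0.44 ± 0.069, adjusted p = 3.68e-05).

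ABCC5, or MRP5, a relative of ABCC4 with similar substrates, fell from 566.4, 572 and 556.6 CPM in vector to 391.9, 389.4 and 385.5 CPM in plasmid libraries (log2 -0.54 ± 0.024, adjusted p = 2.11e-12). Its parental libraries, at 315.9, 324 and 315.4 CPM, and resistant libraries, at 280.8, 291.2 and 318 CPM, overlapped, and it was not called (log2 -0.10 ± 0.045, adjusted p = 0.0661). Without resistant replicate 3, the highest of the group, it was called lower (log2 -0.15, adjusted p = 0.00266), and with library sizes alone its direction turned (log2 0.06, adjusted p = 0.27). ABCG2, the breast cancer resistance protein and a urate exporter, was lower with the plasmid, at 9.47, 9.03 and 8.59 against 11.4, 10.96 and 10.4 CPM (log2 -0.28 ± 0.074, adjusted p = 0.00282). It was higher in resistant cells, at 12.6, 10.6 and 11.5 against 5.57, 4.88 and 5.69 CPM, a 2.15-fold increase (log2 1.10 ± 0.12, adjusted p = 4.39e-07). ABCB1, the P-glycoprotein that confers classical multidrug resistance, stood at 5.10, 4.14 and 4.02 CPM in vector and at 0.673, 0.524 and 1.05 CPM in plasmid libraries, a 5.65-fold decrease (log2 -2.50 ± 0.19, adjusted p = 3.90e-09). It was near absent in the resistance experiment, with 5 counts over the parental and 12 over the resistant libraries, and was not tested there.

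ABCC8, the sulfonylurea receptor of potassium channels, was scarce in every group. It overlapped between plasmid and vector libraries, at 0.269, 0.645 and 0.511 against 0.647, 0.452 and 0.562 CPM (log2 -0.19 ± 0.31, adjusted p = 0.604). In resistant libraries it read 0.986, 1.71 and 2.30 CPM against 0.835, 0.904 and 0.449 CPM in parental ones and was called higher (log2 1.20 ± 0.35, adjusted p = 0.00825), but not without resistant replicate 3 (log2 0.90, adjusted p = 0.0627). ABCC10, or MRP7, a taxane exporter, was higher in both, at log2 0.47 ± 0.052 and 0.18 ± 0.069. Its call in the resistance experiment (adjusted p = 0.0391) was lost with DESeq2, without a filter on low counts, and without parental library a, parental library c or resistant replicate 3. ABCC11 was not called in either experiment.

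Genes that supply glutathione and conjugate it to the substrates of ABCC exporters were mostly lower with the plasmid: 14 of 20 tested were lower and 3 higher, with a median log2 fold change of -0.47. Of all genes, 35.7% were lower and 36.5% higher with the plasmid, and 27.7% and 26.8% in resistant cells. These shares were not compared by a test. GCLC, the catalytic part of glutamate-cysteine ligase, fell 3.48-fold from 1872 ± 16.5 to 538 ± 2.66 CPM, the cystine importer SLC7A11 2.57-fold from 1745 ± 25.4 to 678 ± 64.5 CPM, and the glutathione reductase GSR 1.60-fold from 619 ± 8.67 to 386 ± 4.06 CPM. In resistant cells 6 of 20 were higher and 7 lower, with a median of 0.02. GCLM, the regulatory subunit beside GCLC, fell 1.81-fold, GSR 1.55-fold and the peroxidase GPX2 1.41-fold. Among the 6 higher genes, named after their values were seen, were the glutathione transferases GSTZ1 (log2 0.76 ± 0.097) and MGST3 (log2 0.46 ± 0.058), the glutathione synthetase GSS (log2 0.37 ± 0.055) and the transferase GSTA1, which had 2 counts over the parental and 123 over the resistant libraries. Among 15 other carriers of platinum drugs and copper, 5 of 13 tested were higher and 5 lower with the plasmid, and 1 of 12 was higher and 7 were lower in resistant cells. SLC31A1, the copper importer that also admits platinum drugs, fell from 146.4 ± 2.12 to 103.4 ± 1.75 CPM with the plasmid. It was also called lower in resistant cells, by less (log2 -0.14 ± 0.052, adjusted p = 0.0337). LRRC8A and LRRC8D are subunits of volume-regulated anion channels that admit cisplatin. With the plasmid LRRC8A rose from 42.0 ± 1.49 to 61.8 ± 3.08 CPM (log2 0.56 ± 0.042) and LRRC8D was not called (adjusted p = 0.368). In resistant cells LRRC8A, LRRC8D and ATP7A, a copper exporter, were lower, with log2 fold changes of -0.33 ± 0.060, -0.40 ± 0.047 and -0.60 ± 0.079. ATP7A was lower with the plasmid too (log2 -0.49 ± 0.046, adjusted p = 5.47e-08).

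Members that serve mitochondria and peroxisomes are described next. ABCB10, a mitochondrial carrier tied to heme, was lower with the plasmid, at 25.1 ± 1.25 against 31.5 ± 0.245 CPM (log2 -0.33 ± 0.046). It was not called in resistant cells (adjusted p = 0.139), but was called higher there with library sizes alone (log2 0.32) and in 1 fit of all 12 libraries (log2 0.17). ABCB8, in the same organelle, was called in neither experiment, though with library sizes alone it was called lower with the plasmid (log2 -0.11) and higher in resistant cells (log2 0.24). Of 14 genes of heme and iron-sulfur clusters, 4 were higher and 8 lower with the plasmid, and 9 were higher and 2 lower in resistant cells. The shares over all genes were 36.5% higher and 35.7% lower with the plasmid, and 26.8% and 27.7% in resistant cells. FECH, which completes heme, and ISCU, the iron-sulfur scaffold, were lower with the plasmid (log2 -0.67 ± 0.035 and -0.62 ± 0.035) and higher in resistant cells (log2 0.58 ± 0.056 and 0.68 ± 0.050). ABCB11, the bile salt exporter, was scarce and higher with the plasmid, at 3.44 ± 0.308 against 2.36 ± 0.287 CPM, and was not called in resistant cells.

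ABCD3, which brings fatty acids into peroxisomes, was lower with the plasmid, at 116.5 ± 5.75 against 157 ± 4.35 CPM (log2 -0.43 ± 0.035, adjusted p = 8.96e-09). ABCD4, a lysosomal carrier of cobalamin, was higher, at 57.7 ± 0.325 against 49.6 ± 0.787 CPM. Neither was called in resistant cells by edgeR, DESeq2 or limma-voom, with edgeR p-values of 0.372 for ABCD3 and 0.235 for ABCD4 before adjustment; with library sizes alone ABCD3 was called. Of 12 genes of peroxisomal fatty acid oxidation, 5 of 10 tested were higher and 2 lower with the plasmid, HSD17B4 and SCP2 being the lower ones, and 4 of 11 were higher and 1 lower in resistant cells, among them PEX16, a peroxisome assembly factor, which was higher (log2 0.38 ± 0.091).

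ABCE1, which splits ribosomes after termination, did not differ detectably with the plasmid, at 98.6 ± 3.88 against 99.2 ± 0.497 CPM (adjusted p = 0.88), and was higher in all resistant libraries, at 104.2, 107.4 and 108.7 against 81.0, 81.3 and 76.6 CPM (log2 0.42 ± 0.047, adjusted p = 7.12e-07). On the other strand ANAPC10, OTUD4 and AC098588.1 share 7.49%, 4.41% and 3.88% of its exon length, so the counts of ABCE1 are slightly uncertain. ABCF3, linked to translation, was higher with the plasmid, at 70.1 ± 2.54 against 53.5 ± 2.50 CPM (log2 0.38 ± 0.040), and was not called in resistant cells. ABCF2 was not called with the plasmid and was higher in resistant cells, at 38.2 ± 4.77 against 26.7 ± 1.10 CPM, but it shares 1914 exon bases, 45.8% of its exon length, with AC021097.2, so its counts are uncertain. Of 11 genes of ribosome recycling and initiation, 5 were higher and 5 lower with the plasmid, and 2 were higher and 5 lower in resistant cells. PELO, a ribosome rescue factor, and GCN1, a sensor of stalled ribosomes, were higher with the plasmid (log2 0.74 ± 0.038 and 0.74 ± 0.025) and lower in resistant cells (log2 -0.51 ± 0.059 and -0.30 ± 0.040).

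Some members could not be judged. ABCF1 lies in the region of chromosome 6 from 29722775 to 33314387 that holds the major histocompatibility complex, where 5 of 149 protein-coding genes, or 3.36%, reached 10 CPM in each table, against 46.6% and 46.0% elsewhere. TUBB and BAG6 in that region, which most cells express, had 0.878 and 1.60 CPM in the overexpression table and 0.0647 and 0.173 CPM in the resistance table. Values of ABCF1, at 0.201 to 1.05 CPM as group means, therefore carry little information, and the same holds for the antigen peptide transporters TAP1 and TAP2, ABC proteins outside the symbol rule; the cause was not tested. ABCB6, called higher with the plasmid (log2 1.03 ± 0.28, adjusted p = 0.00315) on 60 against 33 counts, shares 54.7% of its exon length with AC068946.2 and lost its call with DESeq2. ABCB9, a lysosomal peptide carrier, shares exon bases with 3 neighbours on the other strand and was not called.

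Both experiments left 10 members untested for low counts: ABCA8, ABCB4, ABCB5, ABCC6, ABCC9, ABCC12, ABCD2, ABCG4, ABCG5 and ABCG8. ABCC12 had no count in any library, which allows up to 0.0785 to 0.132 CPM per library, 3 counts of its total. ABCG8, a sterol exporter of liver and gut that pairs with ABCG5, had 37 counts in vector and 6 in plasmid libraries. It read 0.418, 0.487 and 0.355 against 0, 0.0806 and 0.128 CPM, and DESeq2 and the fit without a filter called it lower; it is named here because of these values. ABCD2, a peroxisomal carrier, had 8 counts in vector and 26 in plasmid libraries, where the fit without a filter called it higher, and 2 in parental and 18 in resistant ones. The near-identical copies of ABCC6 make its few counts, at most 12 per group, uncertain.

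The change of each member was then compared between the experiments, as the log2 fold change with the plasmid minus that in resistant cells. Of 33 members tested, the difference was called for 25, with 8 above 0 and 17 below, against 69.3% of the 15655 genes tested. The 2 comparisons share no library. Called in both experiments were 16 of the 33 members, against 44.8% of all genes tested in both. Of these 16, 7 had the same direction, among them ABCA2, ABCA9 and ABCC10, which were higher, and ABCA4, ABCA5 and ABCA13, which were lower. The other 9 had opposite directions, as did 66.9% of all genes called in both, so opposite directions were not more frequent among the members. ABCA1, ABCA6, ABCC3, ABCC4, ABCG1 and ABCG2 were lower with the plasmid and higher in resistant cells, and ABCA10, ABCA12 and ABCC2 were higher with the plasmid and lower in resistant cells. Over those 9, whose choice fixes the sign of the difference, it ran from -5.12 ± 0.13 for ABCG1 and -3.54 ± 0.092 for ABCA1 to 3.14 ± 0.070 for ABCA10. ABCC1, which was not called with the plasmid, differed by 0.87 ± 0.11 (adjusted p = 7.63e-07). With library sizes alone, the members split into 6 above and 20 below and the share above 0 among all called genes went from 49.2% to 38.2%. The experiments also differ in medium and in the table their counts come from, and parental and vector libraries correlated at 0.755 to 0.757 in log2 CPM over 9481 genes, parental libraries with each other at 0.998 at the lowest; their part in the differences was not tested.

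**Figure D4:**
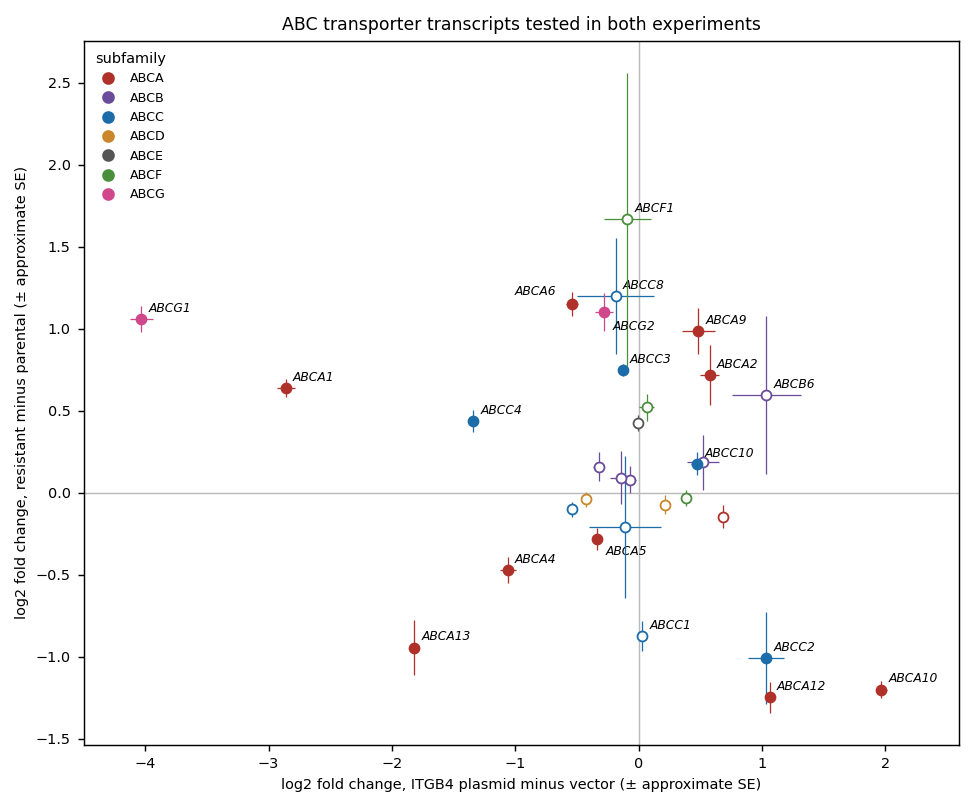
log2 fold changes of 31 members tested in both experiments, plasmid minus vector on the horizontal and resistant minus parental on the vertical axis, with approximate SE bars and colours for subfamilies; filled points were called in both. ABCG1 and ABCA1 lie in the upper left quadrant at -4.03 and -2.86 on the horizontal axis, and ABCA10, ABCA12 and ABCC2 in the lower right.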

How the data were processed

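RNA of RT4 cells was sequenced in 12 libraries, 3 per group. The authors deposited raw counts per gene, 1 table per experiment. Per the file headers, the overexpression counts came from featureCounts 2.0.1 over exons of Ensembl release 107 with no strand option; for the resistance table the sources used here give no counter or annotation. The submitters' processing notes name hg38. Since strand was not used for the overexpression counts, reads of overlapping genes on opposite strands cannot be told apart there. Whether strand was used for the resistance counts is not known.

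Genes passing edgeR's filterByExpr were tested within each experiment by quasi-likelihood (edgeR 4.0.16 in R 4.3.3, TMM scaling, group as the sole term), adjusted over all 16950 and 16875 genes tested. The difference between experiments was 1 fit of 12 libraries with 4 group means, over the 15655 genes passing in both. RPKM used exon lengths of GENCODE 29 over all transcripts of a gene. The exon overlaps between genes come from GENCODE 29 too, and not from the annotation behind the counts. Whether the overlapping genes were part of the counting was not checked. The basic transcript set served only to recount the members at 1 RPKM or more in the control groups. The common biological coefficient of variation was 2.65% and 6.97%. No replicate pair agreed within sampling noise (chi-square per degree of freedom 1.48 to 11.0). The floor of 3 counts covers counting error only.

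The members and lists were chosen with earlier results of these data known. Given with values in every library are ABCB1, ABCC1, ABCC3, ABCC4, ABCC5 and ABCG2, members called with an absolute log2 fold change of at least 1 and a mean of at least 1 CPM in a group, and members called in opposite directions with at least 0.5 in both; of each list, up to 3 called genes with the smallest p. Some genes, 2 members among them, enter the counts but are not reported here singly. All lists but 3 stand in the report with their counts: of 7 TAP partners, 5 of 6 tested were higher with the plasmid and 6 of 6 lower in resistant cells, and of 2 potassium channel partners of ABCC8 and ABCC9 1 was higher in each experiment. Of 3 ABC proteins outside the symbol rule, TAP1, TAP2 and CFTR, 1 was tested, TAP1, which was called higher with the plasmid, from 27 counts in vector to 61 in plasmid libraries. Promoters are RefSeq's, with an entry for 35 of 45 members. The procedure was run on simulated data in which few genes changed, as many up as down. In the real data 72.2% and 54.5% of genes were called. The simulation therefore does not show how scaling performs when so many genes change. Alternatives were DESeq2 1.42.0, limma-voom (limma 3.58.1), other scalings and filters, a 1.5-fold threshold, a joint fit, a replicate block, another exon length and leaving out each library.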

Additional observations from a re-analysis of the deposited data

Results flagged for a closer look

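The change with the plasmid and the change in resistant cells differed by edgeR's test of that difference, adjusted over 15655 genes, in 25 of 33 members tested, against 69.3% of all genes. Values are the log2 fold change with the plasmid minus that in resistant cells. Among the ABCA members and ABCG1 the difference was -5.12 for ABCG1, -3.54 for ABCA1, -1.73 for ABCA6, -0.91 for ABCA13, -0.62 for ABCA4 and -0.54 for ABCA9, and 3.14 for ABCA10, 2.28 for ABCA12 and 0.80 for ABCA7. Among exporters of drugs and conjugates it was -1.81 for ABCC4, -1.41 for ABCG2, -0.91 for ABCC3 and -0.47 for ABCC5, and 2.02 for ABCC2, 0.87 for ABCC1 and 0.26 for ABCC10. ABCC8 differed by -1.43, and this call was lost without plasmid replicate 1, vector replicate 1, parental library c or resistant replicate 3 (adjusted p = 0.0559 to 0.0676). For members of mitochondria, peroxisomes and lysosomes the values were -0.52 for ABCB10, -0.42 for ABCD3 and 0.26 for ABCD4. Those of the ribosome-linked members were -0.46 for ABCE1, -0.49 for ABCF2 and 0.39 for ABCF3. ABCA9 lost this call with DESeq2 (adjusted p = 0.067), without a filter on low counts (adjusted p = 0.0691), and without plasmid replicate 1, vector replicate 1 or parental library a (adjusted p = 0.056 to 0.079). ABCC10 and ABCD4 lost it with library sizes alone, where their differences were 0.089 and 0.082 (adjusted p = 0.372 and 0.262).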

How the results depend on the processing

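No result of the 16 members described singly turned its direction while called. With a test for a change over 1.5-fold in place of any change, 4 of 35 members were higher and 7 lower with the plasmid, against 22.5% of all genes called. In resistant cells 5 of 33 were higher and 4 lower, against 12.5% of all genes called. Only larger changes can pass, and 16 and 11 calls were then lost. Each other setting lost at most 1, 2 and 3 calls over all members and gained at most 2, 5 and 3, for the plasmid, resistance and difference comparisons. Leaving out each library in turn gave 11 higher and 16 to 17 lower with the plasmid, 10 to 14 higher and 8 to 9 lower in resistant cells, and 8 above and 14 to 18 below for the difference. Library sizes alone moved the split of all genes, as given above, and DESeq2 size factors did not move any call of a member. Of the fold changes and differences recomputed for the 16 members described singly, 711 kept their side of the threshold, 14 fell short of it and 1 newly passed it, and 98 counts of members stayed within 1.5 times the main count while 4 did not. Deviations from the group means of vector and plasmid libraries with the same number correlated at -0.017, -0.021 and -0.013. These values show no pairing by number. They cannot exclude a shared culture or day, since groups hold 3 libraries and counting noise of low genes enters. With the replicate block the members split into 11 higher and 16 lower as without it, and into 8 above and 17 below for the difference. In the resistance table the numbers of the column headings, which no label ties to parental samples, gave correlations of -0.022, 0.0050 and -0.021, with the same limit. A replicate block on those column numbers, added after seeing the data, gave 11 higher and 8 lower in resistant cells, ABCC10 falling short (adjusted p = 0.0556), and 8 above and 17 below for the difference. Depth limits the 10 members that were not tested and those resting on few counts, ABCA3, ABCB6, ABCC2 and ABCC8.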
